A study of Homo sapiens with 77 samples.

Results

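The 46 genes described here act in ribosome biogenesis. They were taken as a named list, chosen with earlier results of these data known. They are 46 of the 35813 genes listed in one RNA-seq table and of the 21455 genes listed in a second one. The list holds 3 core proteins of box C/D small nucleolar ribonucleoproteins (snoRNPs), 3 of box H/ACA snoRNPs, 3 subunits of RNA polymerase I, 15 factors of the small and 15 of the large ribosomal subunit, and 7 other nucleolar or supporting proteins. All libraries came from human B cell lymphoma lines. The first table held KARPAS422, DB, Farage and SUDHL5 cells treated with DMSO or with MI-503, an inhibitor of the protein menin (MEN1), at 800 nM for 3 days. The second held control cells of KARPAS422 and SuDHL10 and cells given EPZ-6438 (tazemetostat, an inhibitor of the methyltransferase EZH2) at 1 µM, the menin inhibitor VTP50469 at 330 nM, or both drugs, for 48 h in KARPAS422 and 24 h in SuDHL10. The study gave KARPAS422, DB and SuDHL10 as EZH2 mutant and Farage as wildtype. Each of the 16 groups had 2 libraries. Doses and times come from the study's own legends, since the labels name the drugs alone, and nothing says that replicate libraries came from separate cultures, so that the p-values measure the spread between these libraries.

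Ribosome biogenesis starts in the nucleolus, where RNA polymerase I makes a long precursor of the ribosomal RNAs. Box C/D and box H/ACA snoRNPs modify this precursor, and a series of assembly factors cut, fold and package it into the small and the large subunit before both are exported. The transcription factor MYC is well known to drive many genes of this pathway, and rapidly dividing lymphoma cells make ribosomes at a high rate.

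Because MYC is set beside the members throughout, the promoters were searched for CACGTG, the E-box that MYC with its partner MAX is known to bind. It reads the same on both strands, and no other motif was searched. Promoter windows of 300 bases, from 250 before to 50 after the annotated start in RefSeq (GRCh38.p14), were at hand for 40 members, and 14 of them (35.0%) held the motif, against 2030 of 27305 windows over all genes (7.43%). The 14 were FBL, UTP20, WDR43, NOP14, RRP9, RCL1, BYSL, PNO1, LTV1, PES1, MRTO4, NOC3L, EBNA1BP2 and IPO4. In 10 of them the motif lay 3 to 28 bases after the start and in 4 it lay 5 to 237 bases before it. The 8 stretches of 30 bases below show the motif in capitals with 12 bases on each side for members named in the results, 5′ to 3′ on the strand of the gene.
FBL (chr19:39846356-39846385, minus strand): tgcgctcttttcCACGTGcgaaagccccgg
UTP20 (chr12:101280083-101280112, plus strand): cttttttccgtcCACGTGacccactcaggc
WDR43 (chr2:28894658-28894687, plus strand): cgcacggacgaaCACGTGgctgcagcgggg
RRP9 (chr3:51941892-51941921, minus strand): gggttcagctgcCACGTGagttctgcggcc
PES1 (chr22:30591880-30591909, minus strand): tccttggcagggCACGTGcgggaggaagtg
MRTO4 (chr1:19251807-19251836, plus strand): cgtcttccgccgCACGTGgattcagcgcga
NOC3L (chr10:94362903-94362932, minus strand): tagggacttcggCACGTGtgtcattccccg
IPO4 (chr14:24188828-24188857, minus strand): tgtcagaacctcCACGTGctgtccctcccc
A match describes the letters in the window and not a bound site. With MI-503 in KARPAS422, MRTO4 and IPO4, whose counts are uncertain, were among the 4 members with the largest falls, while FBL, NOC3L and RCL1 were not called. The windows of NOC4L and POLR1A, also among these 4, held no motif, and neither did those of UTP15 and DDX10, which were not called.

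Total counts lay between 13034958 and 54883332 per library in the MI-503 table and between 8956156 and 31573027 in the second table. Levels are given as CPM, the share of a library's counts scaled by its TMM factor. CPM is a share of a library, so that fewer cells of a type and less RNA per cell cannot be told apart. Summed B cell markers were at 2994 to 3929 CPM in the MI-503 table and at 2648 to 5824 CPM in the second, while the summed T cell markers reached 279 and 384 CPM, both in KARPAS422. Of these, CD3G had 114 to 138 CPM in KARPAS422 in the MI-503 table, CD247 72.6 to 93.8 CPM and CD3D 43.2 to 45.1 CPM. CD3E, by contrast, had at most 1.96 CPM there. A single library, replicate 1 of Farage with MI-503, held 24.8 CPM of erythroid markers and 67.0 CPM of epithelial markers, against 0.0834 and 18.8 CPM in replicate 2. In the second table PNO1, NOP16, PPAN and NIP7 were listed at 0 in all 16 libraries, as were 453 of the 8536 genes (5.31%) that had at least 10 CPM in DMSO-treated KARPAS422 in the first. These 4 members are therefore described with MI-503 only. IPO4 had 0.862 to 2.73 CPM in the second table, and in the annotation 96.1% of its exon length is shared with other gene models. Its counts are therefore uncertain in both tables. PPAN shares 61.8% of its exon length, with P2RY11 and a readthrough gene, and 49 annotated pseudogenes carry the name of NPM1.

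The members were expressed in every line, and their order between lines was not that of MYC. Per kilobase of exon, the most abundant member in the DMSO-treated cells was NPM1 (nucleophosmin, chr5:171387116-171411810, plus strand), a chaperone of the nucleolus. It had 1097 ± 27.4 CPM per kb in KARPAS422, 594.2 ± 6.56 for DB, 1154 ± 35.8 for Farage and 936.4 ± 14.6 in SUDHL5 (mean ± SD, n = 2). NCL (nucleolin, chr2:231453531-231483641, minus strand), an RNA-binding protein of the nucleolus, had 199.1 ± 2.15, 298.7 ± 11.7, 399.9 ± 37.3 and 257.0 ± 5.25 CPM per kb in the same order of lines. NPM1 thus took 22.0% to 36.1% and NCL 5.61% to 11.1% of the summed level of the list. Next came FBL (fibrillarin, chr19:39834458-39846379, minus strand), which methylates ribosomal RNA, then NOP56 (chr20:2652593-2658393, plus strand), which shares the box C/D particle with it, and DDX21, an RNA helicase.

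The summed level of the 46 members in DMSO-treated cells was 7860 and 8259 CPM in Farage, 7657 and 7486 CPM in KARPAS422, 6004 and 6114 CPM in DB and 5617 and 5388 CPM in SUDHL5. On this scale the libraries of the lines did not overlap, although the nearest libraries of Farage and KARPAS422 stood close together. Without the TMM factor these 2 lines overlapped, at 0.776% and 0.810% of the counts in Farage and 0.781% and 0.769% in KARPAS422. MYC, by contrast, had 711.4 and 716.0 CPM in DB, 213.8 and 214.4 CPM in KARPAS422, 189.4 and 188.0 CPM in Farage and 30.3 and 28.2 CPM in SUDHL5. It was highest in DB, where the summed level of the members was below those of Farage and KARPAS422. From the lowest to the highest line MYC spanned 24.4-fold, and the members spanned 1.28-fold to 4.44-fold with a median of 1.86-fold. KARPAS422 had the highest level of 30 members, Farage of 12, DB of 4 and SUDHL5 of 0, and the lowest level was in SUDHL5 for 31 members, DB for 11, KARPAS422 for 3 and Farage for 1.

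**Figure D1:**
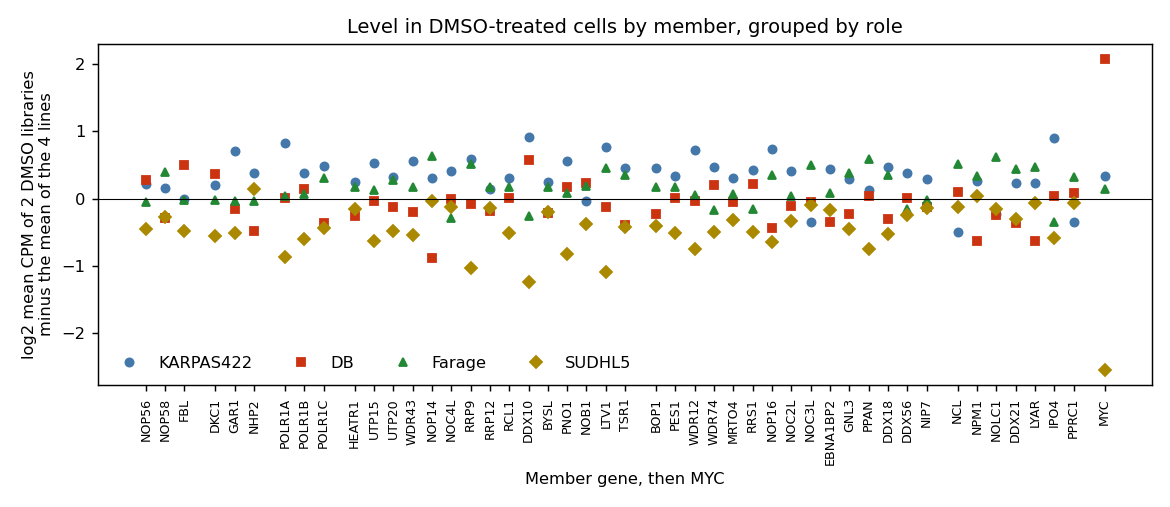
Level of each of the 46 members and of MYC in DMSO-treated cells of 4 lines, as log2 of the mean CPM of 2 libraries minus the mean over the 4 lines, grouped by role. SUDHL5 is the lowest line for 31 members, while MYC is highest in DB and lowest in SUDHL5.

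A member was counted as different between lines where edgeR's quasi-likelihood test gave an adjusted p below 0.1 with more than 1.5-fold between the means. Against SUDHL5, 26 members were higher and 0 lower in KARPAS422, where 25% of all genes tested were higher and 26.4% lower. Farage had 28 higher and 0 lower (24% and 23.5% of all genes), and DB had 13 and 4 (26.5% and 28.3%). The median log2 difference of the members from SUDHL5 was 0.72 in KARPAS422, 0.70 in Farage and 0.20 in DB, while that of all genes was 0.0072, -0.0091 and -0.035. MYC differed from SUDHL5 by 2.82, 2.77 and 4.55 on the same scale. KARPAS422 had 18 members higher and 0 lower than DB (26.6% and 26.0% of all genes), a median of 0.46, although its MYC level was lower, at -1.73 ± 0.030 (adjusted p = 1.27e-15). DB had 1 member higher and 15 lower than Farage (27.7% and 28.5%), with a median of -0.50, and its MYC level was 1.78 ± 0.032 (adjusted p = 2.45e-15) above that of Farage. Between KARPAS422 and Farage 4 members were higher and 5 lower (25.2% and 25.8%), and MYC did not pass the threshold, at 0.055 ± 0.032 (adjusted p = 0.131). It was at 0.24 (adjusted p = 5.09e-06) with total counts as the only scaling and at 0.11 (adjusted p = 0.0232) with no filter on low counts. Both values were short of 1.5-fold.

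NCL was lower in KARPAS422 than in each of the other lines, unlike most members, although only the difference from Farage passed a fold of 1.5. The differences were -0.58 ± 0.049 against DB, -1.13 ± 0.049 against Farage and -0.41 ± 0.049 against SUDHL5 (log2 ± SE, adjusted p at most 2.54e-06). NOP14, a factor of the small subunit processome, was low in DB, where it stood -1.64 ± 0.044 (adjusted p = 1.59e-13) against Farage, and it was 1.19 ± 0.042 (adjusted p = 3.39e-12) higher in KARPAS422 than in DB. DDX10, a helicase of the same particle, stood 2.11 ± 0.044 (adjusted p = 7.96e-15) higher in KARPAS422 than in SUDHL5, and LTV1, which is needed to export the small subunit, 1.67 ± 0.069 (adjusted p = 2.53e-11) higher in Farage than in SUDHL5. IPO4, an importin, was 1.13 ± 0.047 (adjusted p = 1.98e-11) higher in KARPAS422 than in Farage. FBL was highest in DB, the line with the highest MYC level.

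Single small subunit factors differed between lines, and so did members of the other roles. Among the small subunit factors LTV1 was 1.84 higher in KARPAS422 and 0.95 higher in DB than in SUDHL5, and 0.89 higher in KARPAS422 than in DB (log2). DDX10 was lowest in SUDHL5, with 1.77 more in DB, and in Farage it lay 1.04 below KARPAS422 and 0.70 below DB. RRP9 was 1.57 and 1.62 higher in KARPAS422 and Farage than in SUDHL5, PNO1 0.94 higher in DB than in SUDHL5, and NOP14 differed there by -0.88. Of the other roles, POLR1A was 1.64 higher in KARPAS422 than in SUDHL5 and 0.65 higher than in Farage, GAR1 was 0.61 higher in KARPAS422 than in Farage, and FBL was 0.92 higher in DB than in SUDHL5. NPM1 was low in DB, with differences of -1.09 from Farage and -0.70 from SUDHL5 and 0.89 more in KARPAS422. LYAR was low there as well, at -1.24 from Farage and -0.61 from SUDHL5, and NHP2 differed from SUDHL5 by -0.69. NOLC1 was higher in Farage than in KARPAS422 and DB, with -0.97 for KARPAS422 and -1.01 for DB, and NOC3L and PPRC1 differed between KARPAS422 and Farage by -0.97 and -0.80. NOP16 was 1.18 higher in KARPAS422 than in DB and 1.09 higher in Farage than in SUDHL5, and PPAN was 1.43 higher in Farage than in SUDHL5. The standard errors of these differences were 0.034 to 0.073, and each had an adjusted p of at most 1.34e-06.

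MI-503 lowered 24 to 44 of the 46 members, depending on the line. The summed level of the 46 members was 83.2% of that with DMSO in KARPAS422. It was 58.9% for DB, 90.2% for Farage and 73.4% for SUDHL5, and MYC stood in this order of lines at 105.9%, 19.8%, 109.5% and 65.5%. A total of 22 members were called lower in all 4 lines, 14 in 3 lines, 8 in 2 lines and 2 (UTP15 and NOB1) in 1 line. Of the 11423 genes tested in all 4 lines, 5.25% were called lower in 4 lines, 12.1% in 3, 17.2% in 2, 25.6% in 1 and 39.8% in none. The 22 were NOP56, NOP58, POLR1A, POLR1B, UTP20, WDR43, NOP14, RRP12, BYSL, PNO1, TSR1, PES1, MRTO4, NOC2L, PPAN, DDX18, DDX56, NCL, DDX21, LYAR, IPO4 and PPRC1. A count over all 4 lines cannot exceed the members called in Farage, the line with the fewest. Fewer were called there with DESeq2, and the number changed when single libraries were left out, as given below. No member was called higher in DB, Farage or SUDHL5 with edgeR, none rose there at an unadjusted p under 0.05, and DESeq2 also called none.

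**Figure D2:**
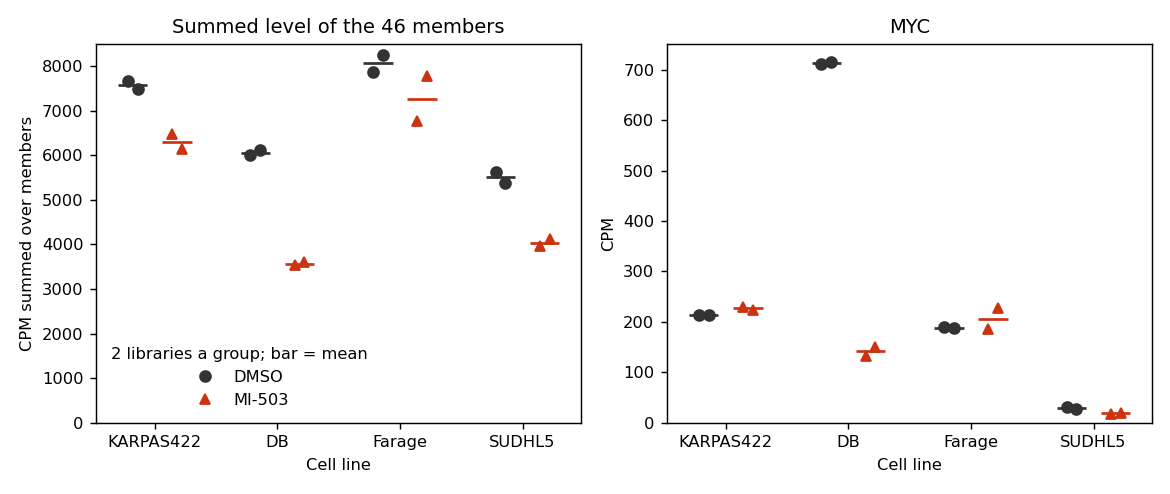
Summed CPM of the 46 members (left) and CPM of MYC (right) in each of 2 DMSO and 2 MI-503 libraries of 4 lines, with the mean as a bar. The MI-503 libraries lie below the DMSO libraries of their line on the left in every line, and on the right in DB and SUDHL5.

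In KARPAS422, 40 of 46 members were called lower and 1 higher at an adjusted p under 0.1, against 26.3% and 25.5% of all 14495 genes tested. The median log2 fold change was -0.29 over the members and 0.0068 over all genes, so the falls were shallow. A single member, IPO4, whose counts are uncertain, also passed a fold of 1.5 (2.75% of all genes did so as lower). The MI-503 libraries of 42 members lay wholly below the DMSO libraries, as did those of 35.2% of all genes. IPO4 had 140.5 and 139.1 CPM with DMSO and 90.9 and 91.6 CPM with MI-503, a log2 fold change of -0.60 ± 0.037 (adjusted p = 5.58e-07). NOC4L, which pairs with NOP14 in the small subunit processome, had 36.4 and 33.9 CPM with DMSO and 23.6 and 24.2 CPM with MI-503, -0.54 ± 0.061 (adjusted p = 3.54e-05). MRTO4, a factor of the large subunit stalk, had 84.8 and 85.9 CPM with DMSO and 60.9 and 55.9 CPM with MI-503, -0.52 ± 0.040 (adjusted p = 2.45e-06). In all 3 genes both treated libraries lay well below both DMSO libraries, which agreed closely. POLR1A, the largest subunit of RNA polymerase I, fell by 0.49 from 166.2 and 170.9 CPM to 119.8 and 115.9 CPM (SE 0.033, adjusted p = 9.80e-07). NCL changed by -0.28 ± 0.026 (adjusted p = 9.89e-06), from 775.3 and 787.2 CPM to 648.3 and 621.3 CPM, NOP56 by -0.34 ± 0.034 (adjusted p = 1.91e-05) and NPM1 by -0.17 ± 0.026 (adjusted p = 0.000372). The box H/ACA proteins DKC1 (dyskerin, chrX:154762742-154777689, plus strand), GAR1 and NHP2 all fell, with DKC1 at -0.14 ± 0.031 (adjusted p = 0.00304), and so did POLR1B, at -0.12 ± 0.041 (adjusted p = 0.0291). By role, 2 of 3 box C/D, 3 of 3 box H/ACA and 3 of 3 RNA polymerase I members were lower, with 11 of 15 factors of the small subunit, 14 of 15 of the large subunit and 7 of 7 others.

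The exceptions in KARPAS422 were NOB1, the nuclease that makes the final cut of the small subunit RNA, with 101.0 and 104.3 CPM with DMSO and 118.8 and 105.7 CPM with MI-503 and a rise of 0.16 ± 0.041 (adjusted p = 0.00901), and 5 members that were not called. Without replicate 1 of MI-503 NOB1 no longer passed (adjusted p = 0.165). FBL had 255.3 and 248.9 CPM with DMSO and 263.3 and 241.9 CPM with MI-503 (0.026 ± 0.031, adjusted p = 0.539, 95% interval -0.043 to 0.095), and UTP15, RCL1, DDX10 and NOC3L also missed the threshold at -0.092, -0.051, -0.035 and 0.047. MYC in the same cells had 213.8 and 214.4 CPM with DMSO and 229.1 and 224.3 CPM with MI-503. Both treated libraries stood slightly above both DMSO libraries, a rise of 0.10 ± 0.030 (adjusted p = 0.0158) that missed the threshold with all 16 libraries in 1 fit (adjusted p = 0.198) and without replicate 2 of MI-503 (adjusted p = 0.134). The log2 fold change of 45 of the 46 members was below that of MYC.

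DB cells showed the deepest falls. In DB, 44 of 46 members were called lower and 0 higher at an adjusted p under 0.1, against 34.7% and 34.5% of all 13942 genes tested, and 41 of the members also fell more than 1.5-fold (10.2% of all genes). The libraries of 44 members did not overlap, as for 40.0% of all genes. The median log2 fold change of the members was -0.92, a level 47.3% lower, and that of all genes was 0.023. NOP16, a factor of the large subunit, fell furthest, from 31.6 and 28.6 CPM to 8.92 and 9.48 CPM, -1.72 ± 0.081 (adjusted p = 3.61e-09). NOP56 had 302.4 and 302.7 CPM with DMSO and 112.8 and 114.0 CPM with MI-503, -1.42 ± 0.029 (adjusted p = 7.83e-12), and its partner NOP58 changed by -1.37 ± 0.040 (adjusted p = 8.23e-11). GNL3 (nucleostemin), a nucleolar GTPase, had 137.5 and 137.1 CPM with DMSO and 51.4 and 55.4 CPM with MI-503, -1.37 ± 0.043 (adjusted p = 1.15e-10). Within each of these groups the libraries agreed closely, and the gap between groups was many times the gap between replicates. NCL fell from 1140 and 1205 CPM to 514.6 and 532.6 CPM (-1.17 ± 0.030, adjusted p = 4.33e-11), DKC1 changed by -0.97 ± 0.036 (adjusted p = 4.01e-10) and POLR1B by -1.13 ± 0.055 (adjusted p = 4.41e-09). FBL, the third core protein of the box C/D particle, moved less, with 353.2 and 360.8 CPM with DMSO and 276.1 and 284.8 CPM with MI-503 (-0.36 ± 0.029, adjusted p = 4.17e-07). All 15 factors of the large subunit, 14 of 15 of the small subunit, all 9 snoRNP and RNA polymerase I members and 6 of 7 others were lower.

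Only NPM1 and NOB1 were not called in DB. NPM1 had 778.2 and 790.4 CPM with DMSO and 810.7 and 813.6 CPM with MI-503 (0.043 ± 0.024, adjusted p = 0.139), and NOB1 was at 0.053 ± 0.033 (adjusted p = 0.182). With total counts as the only scaling, 2 members were called higher. MYC fell from 711.4 and 716.0 CPM to 132.3 and 150.5 CPM, -2.34 ± 0.047 (adjusted p = 7.83e-12), further than any of the 46 members. The DB libraries with MI-503 were also the deeper ones, at 46170498 and 52236459 counts against 14695930 and 15474692 with DMSO, so that depth and treatment went together. After thinning all 4 libraries to equal depth 44 members were still called lower. The summed epithelial markers of DB moved from 19.4 and 21.3 CPM to 30.8 and 31.4 CPM, mostly KRT10, the summed T cell markers from 43.1 and 41.8 CPM to 29.1 and 30.6 CPM, and the summed B cell markers from 2994 and 3003 CPM to 3588 and 3508 CPM. The T cell sum was mostly CD247, since CD3D, CD3E and CD3G each had at most 1.48 CPM in DB. The part of these markers in the result was not tested.

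Farage showed the smallest changes. There 24 of 46 members were called lower and 0 higher at an adjusted p under 0.1, against 14.7% and 12.3% of all 12659 genes tested, with a median of -0.14 against 0.0071 for all genes, and no member passed a fold of 1.5 (1.48% of all genes did as lower). The log2 fold change was below 0 for all 46 members, and the libraries of 40 did not overlap (30.3% of all genes). Total counts as the only scaling left 39 of the 46 below 0, with a median of -0.10. TSR1, which takes part in the late maturation of the small subunit, had 138.4 and 143.3 CPM with DMSO and 102.5 and 119.3 CPM with MI-503, -0.39 ± 0.044 (adjusted p = 0.000309). PES1, a member of the PES1, BOP1 and WDR12 complex of the large subunit, had 104.7 and 108.9 CPM with DMSO and 77.6 and 91.7 CPM with MI-503, -0.38 ± 0.049 (adjusted p = 0.000647). DDX18, a helicase, had 214.7 and 220.2 CPM with DMSO and 161.8 and 192.8 CPM with MI-503, -0.34 ± 0.042 (adjusted p = 0.000549). In each of the 3 genes replicate 1 of MI-503 was lower than replicate 2, and both lay below the DMSO libraries. IPO4 changed by -0.31 ± 0.063 (adjusted p = 0.00750), NCL by -0.25 ± 0.060 (adjusted p = 0.0155), NPM1 by -0.19 ± 0.044 (adjusted p = 0.0158), NOP56 by -0.17 ± 0.039 (adjusted p = 0.0133) and POLR1B by -0.20 ± 0.052 (adjusted p = 0.0214). The 3 box H/ACA members were not called (DKC1 at -0.11, adjusted p = 0.123), nor was FBL at -0.027.

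Replicate 1 of Farage with MI-503, the library with the erythroid and epithelial markers, was below replicate 2 in 46 of 46 members, by a median of 0.22 on the log2 scale, and the part of those markers in the result was not tested. Without it 23 members were called lower, and without replicate 2 of MI-503, 29. Without replicate 2 of DMSO 7 were called, and without replicate 1 of DMSO, 16. DESeq2 called 17. MYC had 189.4 and 188.0 CPM with DMSO and 185.3 and 227.8 CPM with MI-503 and was not called, at 0.087 ± 0.046 (adjusted p = 0.226), and its 2 treated libraries lay on both sides of the DMSO libraries. Without replicate 1 of MI-503 it was called higher, at 0.14 (adjusted p = 0.0153).

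SUDHL5, the line with the lowest MYC level, lay between DB and the other lines. In SUDHL5, 40 of 46 members were called lower and 0 higher at an adjusted p under 0.1, against 28.7% and 26.3% of all 13396 genes tested, and 11 passed a fold of 1.5 (7.41% of all genes). The median was -0.45, against -0.0037 for all genes, and the libraries of 43 members did not overlap (37.7% of all genes). MRTO4 had 57.0 and 54.5 CPM with DMSO and 28.9 and 30.5 CPM with MI-503, -0.89 ± 0.062 (adjusted p = 5.99e-06). NOP14 had 115.9 and 117.3 CPM with DMSO and 61.3 and 66.4 CPM with MI-503, -0.84 ± 0.052 (adjusted p = 3.34e-06), and UTP20, a large scaffold of the small subunit processome, 51.0 and 49.9 CPM with DMSO and 26.6 and 30.5 CPM with MI-503, -0.79 ± 0.066 (adjusted p = 1.64e-05). The treated libraries of all 3 stood far below the DMSO libraries, a little above the midpoint between these and 0. RRS1, which helps to bring the 5S ribosomal RNA into the large subunit, changed by -0.71 ± 0.075 (adjusted p = 6.25e-05), NCL by -0.70 ± 0.053 (adjusted p = 9.30e-06), NOP56 by -0.52 ± 0.043 (adjusted p = 1.39e-05), DKC1 by -0.48 ± 0.046 (adjusted p = 3.40e-05), POLR1B by -0.47 ± 0.068 (adjusted p = 0.000424) and NPM1 by -0.20 ± 0.049 (adjusted p = 0.00713). FBL had 190.2 and 172.6 CPM with DMSO and 161.8 and 172.6 CPM with MI-503 (-0.095 ± 0.041, adjusted p = 0.0829), whose nearest libraries were level across the groups.

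Not called in SUDHL5 were GAR1, POLR1C, UTP15, RRP9, NOB1 and WDR74. WDR74, a factor of the large subunit, had 44.3 and 40.6 CPM with DMSO and 53.0 and 34.2 CPM with MI-503, so that its treated libraries lay on both sides of the DMSO libraries. MYC had 30.3 and 28.2 CPM with DMSO and 18.28 and 20.03 CPM with MI-503, -0.59 ± 0.075 (adjusted p = 0.000202), and the log2 fold change of 10 of the 46 members was below that of MYC and that of 36 above it.

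**Figure D3:**
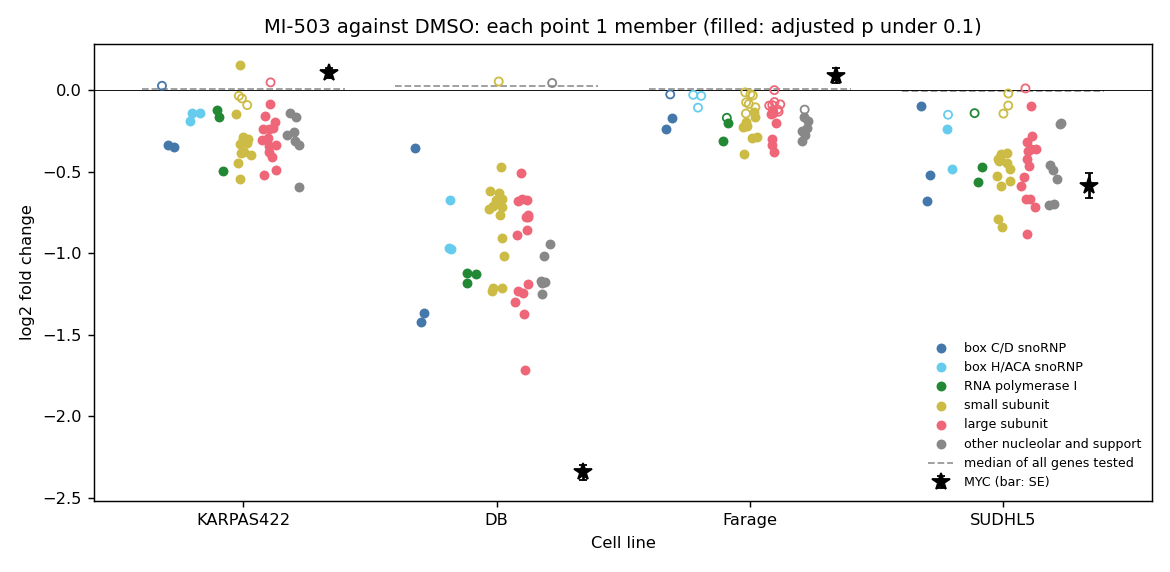
Log2 fold change with MI-503 against DMSO for each of the 46 members (points, by role; filled points have an adjusted p under 0.1) and for MYC (star, bar is the standard error) in 4 lines, with the median of all genes as a dashed line. Members lie mostly below 0 in every line, deepest in DB, while MYC lies above all but 1 of them in KARPAS422 and above all in Farage, below them in DB and among them in SUDHL5.

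The difference between lines was tested directly as an interaction term for KARPAS422 against each other line. Against DB, 43 members changed less steeply in KARPAS422 and 1 in the other direction, where 27.2% and 19.7% of all genes differed. The median difference was 0.67, and it was widest for NOP16 at 1.39 ± 0.10 (adjusted p = 6.62e-08), GNL3 at 1.30 ± 0.059 (adjusted p = 5.61e-10), NOP56 at 1.10 ± 0.046 (adjusted p = 2.60e-10) and PPAN, a factor of the large subunit, at 1.05 ± 0.061 (adjusted p = 5.99e-09). NPM1 went the other way, -0.20 ± 0.039 (adjusted p = 0.000863). It fell in KARPAS422 and was not called in DB. NOC4L and NOB1 did not pass this test, at 0.18 and 0.12. The response of MYC itself differed by 2.46 ± 0.063 (adjusted p = 3.06e-12), more than that of any member.

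Against SUDHL5, 22 members changed less steeply in KARPAS422 and 1 more steeply (19.0% and 17.0% of all genes), with a median difference of 0.16. NOP14 differed by 0.53 ± 0.065 (adjusted p = 6.67e-05), EBNA1BP2, a factor of the large subunit, by 0.43 ± 0.063 (adjusted p = 0.000254), NCL by 0.41 ± 0.062 (adjusted p = 0.000298) and UTP20 by 0.40 ± 0.074 (adjusted p = 0.00140). RRP9, a protein of the U3 snoRNP, differed the other way (-0.28 ± 0.089, adjusted p = 0.0314), a call that was lost without either DMSO library or replicate 2 of MI-503 in SUDHL5. MYC differed by 0.68 ± 0.061 (adjusted p = 5.47e-06). Against Farage, 1 member, NOB1, rose relative to Farage, by 0.26 ± 0.069 (adjusted p = 0.0228), and 12 fell more in KARPAS422 (9.52% and 14.7% of all genes), with NOC4L at -0.55 ± 0.099 (adjusted p = 0.00248), BOP1, a scaffold of the large subunit, at -0.39 ± 0.078 (adjusted p = 0.00503), MRTO4 at -0.35 ± 0.070 (adjusted p = 0.00446) and IPO4 at -0.32 ± 0.084 (adjusted p = 0.0222). MYC did not pass the threshold there, at -0.013 ± 0.069 (adjusted p = 0.946). The median difference from Farage was -0.12 over the members and -0.045 over all genes. With RLE size factors these medians were -0.064 and 0.0071. The count of 12 was 4 without replicate 1 of DMSO in KARPAS422, 5 without replicate 1 or replicate 2 of MI-503 in KARPAS422 or replicate 1 of DMSO in Farage, 7 without replicate 2 of DMSO in Farage, 6 with DESeq2 and 22 without replicate 1 of MI-503 in Farage. NOB1 was no longer called without either DMSO library of Farage.

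Other genes of the pathway, 117 genes in 5 further lists, were counted the same way. With MI-503, 85 of 117 were lower and 5 higher in KARPAS422, 102 and 5 in DB, 36 and 1 in Farage, and 92 and 5 in SUDHL5. The lower genes were 72.6%, 87.2%, 30.8% and 78.6% of these 117, beside 26.3%, 34.7%, 14.7% and 28.7% of all genes. The RNA polymerase I machinery held 3 of the 5 higher genes in KARPAS422 and 3 of the 5 in SUDHL5. Of its 12 genes 6 were lower in KARPAS422, with UBTF, which opens the ribosomal RNA genes for transcription, at -0.40 ± 0.029 (adjusted p = 2.00e-06) and TAF1D, a subunit of the promoter selectivity factor, at 0.32 ± 0.033 (adjusted p = 2.23e-05). In DB UBTF was at -0.53 ± 0.029 (adjusted p = 1.28e-08), and in SUDHL5 TAF1D was at 0.38 ± 0.043 (adjusted p = 9.87e-05). Of 38 other factors of the small subunit 30 were lower in KARPAS422, 36 for DB, 13 for Farage and 32 for SUDHL5, and of 41 other factors of the large subunit 32, 37, 15 and 33. WDR3, a small subunit factor, changed by -1.14 ± 0.044 (adjusted p = 6.26e-10) in DB and MDN1, the ATPase that strips factors from the large subunit, by -0.96 ± 0.033 (adjusted p = 2.71e-10). In the list of snoRNP and assembly factors RUVBL1, an ATPase of the complex that builds box C/D particles, changed by -1.04 ± 0.042 (adjusted p = 8.38e-10) in DB and -0.77 ± 0.056 (adjusted p = 7.34e-06) in SUDHL5. Of 14 genes of the RNA exosome, which trims ribosomal RNA precursors, 10, 12, 3 and 13 were lower.

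The second table asked how each drug alone and both together changed the members. Control cells of SuDHL10 and KARPAS422 had summed levels of 15155 and 14956 CPM in SuDHL10 and 10967 and 9945 CPM in KARPAS422 over the 42 members above 0. In all, 6 members were higher and 3 lower in SuDHL10 by the same rule as between the other lines (20.9% and 25.7% of all genes). PPRC1, a coactivator related to PGC-1, was higher by 1.56 ± 0.15 (adjusted p = 3.78e-06), NOLC1, a nucleolar chaperone of snoRNPs, by 1.44 ± 0.13 (adjusted p = 2.12e-06), NCL by 1.34 ± 0.11 (adjusted p = 1.69e-06) and DKC1 by 1.28 ± 0.12 (adjusted p = 5.06e-06). Lower in SuDHL10 were DDX10 at -0.93 ± 0.14 (adjusted p = 0.000235), RRP12 at -0.71 ± 0.16 (adjusted p = 0.00303) and WDR12 at -0.65 ± 0.14 (adjusted p = 0.00253). The median difference of the members was 0.15, which turned to -0.034 with total counts as the only scaling. MYC was not called, at 0.27 ± 0.14 (adjusted p = 0.126).

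In KARPAS422 at 48 h, EPZ-6438 alone lowered 25 of 42 members and raised 0, against 10% and 8.27% of all 13223 genes tested, and 11 of the members also passed a fold of 1.5 (2.53% of all genes). The median log2 fold change was -0.45, against -0.023 over all genes. NOC4L changed by -0.75 ± 0.14 (adjusted p = 0.0260), RRP9 by -0.67 ± 0.11 (adjusted p = 0.0188), WDR74 by -0.66 ± 0.088 (adjusted p = 0.0119) and NOC2L, a factor of the large subunit, by -0.62 ± 0.11 (adjusted p = 0.0230). MYC fell in the same cells, at -0.73 ± 0.12 (adjusted p = 0.0182), and 1 member fell further. The count of 25 depended on a single library: without replicate 2 of EPZ-6438 no member passed, with 31 called by DESeq2 in the full set, and leaving out the other libraries gave 19 to 22. The median of the members stayed between -0.58 and -0.42 in these fits.

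With VTP50469 alone, edgeR called no member lower or higher in KARPAS422 (0.197% and 3.18% of all genes), with 4 lower and 0 higher at an unadjusted p under 0.05 and 4 lower with DESeq2. The median was -0.18, and 38 of 42 members lay below 0. NPM1 changed by -0.43 (95% interval -0.82 to -0.036, adjusted p = 0.335) and NCL by -0.32 (95% interval -0.65 to 0.011, adjusted p = 0.404), and neither passed the threshold. MYC was at -0.027 (95% interval -0.31 to 0.25, adjusted p = 0.987).

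Both drugs together lowered 41 of 42 members in KARPAS422 and raised 0 (25.2% and 23.5% of all genes), and 40 fell more than 1.5-fold (15.1% of all genes). The summed level was 46.6% of that of the control libraries, while it was 76.9% with EPZ-6438 and 85.6% with VTP50469. The median log2 fold change was -1.11, against 0.10 over all genes. NCL had 1225 and 1096 CPM in the control libraries, 873.2 and 857.1 CPM with EPZ-6438, 947.5 and 919.1 CPM with VTP50469 and 526.9 and 401.1 CPM with both drugs. MRTO4 had 143.5 and 141.3 CPM in the control libraries, 108.2 and 92.0 CPM with EPZ-6438, 120.7 and 108.7 CPM with VTP50469 and 51.8 and 47.8 CPM with both drugs. In both genes the libraries with both drugs lay below all 6 others. MRTO4 changed by -1.55 ± 0.12 (adjusted p = 0.000383), LYAR, a nucleolar protein of growing cells, by -1.58 ± 0.19 (adjusted p = 0.00136), NCL by -1.36 ± 0.14 (adjusted p = 0.000825) and BYSL (bystin), a late factor of the small subunit, by -1.35 ± 0.099 (adjusted p = 0.000338). NOP56 changed by -1.15 ± 0.095 (adjusted p = 0.000453), FBL by -1.01 ± 0.090 (adjusted p = 0.000561), DKC1 by -1.04 ± 0.13 (adjusted p = 0.00150), POLR1B by -1.28 ± 0.14 (adjusted p = 0.000903) and NPM1 by -1.14 ± 0.17 (adjusted p = 0.00258). For all 42 members the libraries with both drugs lay below the control libraries, as did those of 31.5% of all genes, and IPO4 alone was not called (-0.94 ± 0.42, adjusted p = 0.117).

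MYC had 333.9 and 368.6 CPM in the control libraries, 229.6 and 207.4 CPM with EPZ-6438, 359.6 and 333.5 CPM with VTP50469 and 149.1 and 131.3 CPM with both drugs, -1.36 ± 0.12 (adjusted p = 0.000547) with both drugs, and 2 members fell further. With total counts as the only scaling, the median of all genes moved up by 0.23 and that of the members to -0.87, and all 42 members stayed below 0. The 2 libraries with both drugs had the highest chi-square per gene between replicates, 47.5 against 1.82 to 27.7 in the other groups, and replicate 2 was the lower one in 32 of 42 members. Leaving out each library in turn gave 40 to 42 members called lower. Summed T cell markers, a small signal that this line carries, were at 378 and 289 CPM in these 2 libraries and at 384 and 330 CPM in the control libraries.

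Against EPZ-6438 alone, both drugs lowered 37 of 42 members and raised 0 (10.9% and 10% of all genes), with a median of -0.67. MRTO4 differed by -1.003 ± 0.12 (adjusted p = 0.00794), LYAR by -0.98 ± 0.19 (adjusted p = 0.0278), DDX21 by -0.97 ± 0.23 (adjusted p = 0.0441) and UTP20 by -0.91 ± 0.22 (adjusted p = 0.0437), while MYC differed by -0.64 ± 0.12 (adjusted p = 0.0254). This count was 2 without replicate 1 and 0 without replicate 2 of EPZ-6438, and 20 when the 2 groups were fitted alone. Against VTP50469 alone, both drugs lowered 41 and raised 0 (21.9% and 16.2% of all genes), with a median of -0.94 and MYC at -1.34 ± 0.12 (adjusted p = 0.00192), a count that was 0 without replicate 1 of VTP50469. MRTO4 differed by -1.23 ± 0.12 (adjusted p = 0.00203), RRS1 by -1.22 ± 0.15 (adjusted p = 0.00305), LYAR by -1.19 ± 0.19 (adjusted p = 0.00604) and BYSL by -1.17 ± 0.099 (adjusted p = 0.00167). In all these fits the median of the members stayed below 0, between -0.97 and -0.54 against EPZ-6438 and between -1.28 and -0.83 against VTP50469. A term for the change beyond the sum of the single drugs was below 0 for all 42 members, with a median of -0.49, but edgeR called none (0% of all genes lower and 0% higher). At an unadjusted p under 0.05 it gave 23 lower, DESeq2 called 14 lower, and without replicate 1 of both drugs edgeR called 41. MYC was at -0.61 ± 0.17 (adjusted p = 0.718) for this term.

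**Figure D4:**
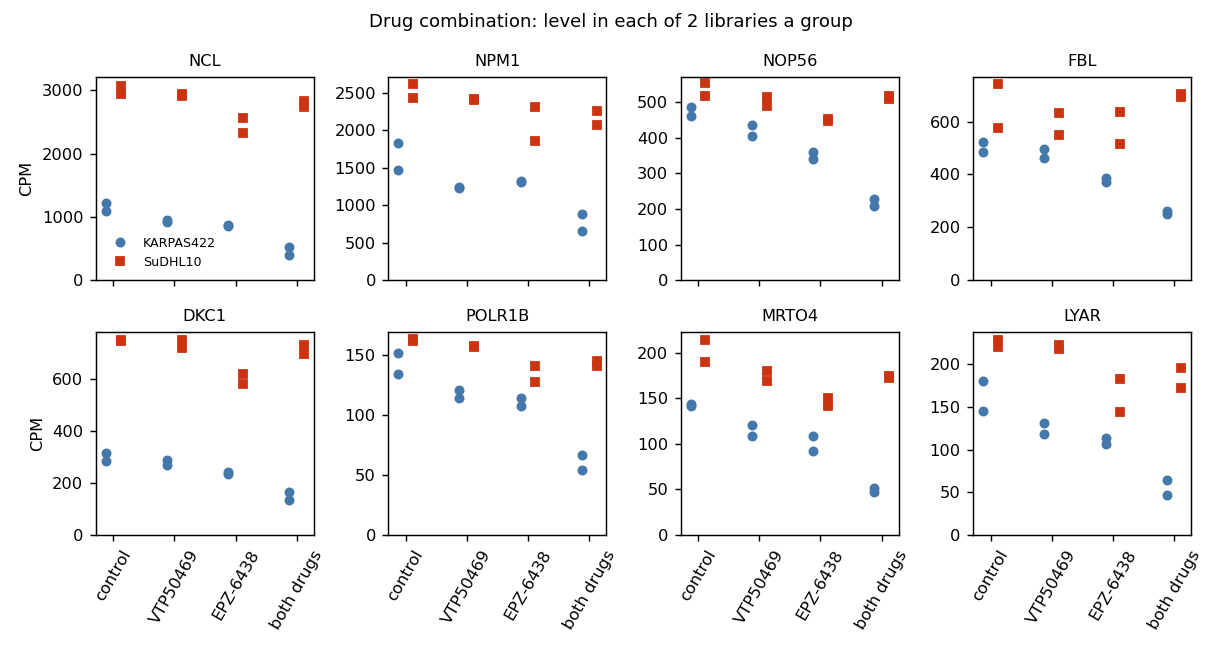
CPM of 8 members in each of 2 libraries per group, KARPAS422 (circles) and SuDHL10 (squares), for control cells and each treatment. In KARPAS422 the libraries with both drugs lie below all others in each of the 8 genes, while in SuDHL10 the lowest library is one with EPZ-6438 in each of them.

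SuDHL10 was treated for 24 h, so its values stand beside those of KARPAS422 without a test between the lines. EPZ-6438 alone lowered 20 of 42 members and raised 0 (5.39% and 12.1% of all 11409 genes), with a median of -0.30 against -0.024 over all genes. With the replicate number as a block 40 were lower. UTP20 had 123.6 and 141.5 CPM in the control libraries, 80.0 and 98.2 CPM with EPZ-6438, 134.8 and 141.1 CPM with VTP50469 and 97.6 and 98.9 CPM with both drugs, -0.56 ± 0.12 (adjusted p = 0.0168) with EPZ-6438. Both EPZ-6438 libraries lay below the control libraries, and those with both drugs also lay below them. IPO4, which had at most 2.73 CPM in any library of this table, changed by -0.9976 ± 0.32 (adjusted p = 0.0769), RRP9 by -0.52 ± 0.17 (adjusted p = 0.0876), UTP15 by -0.50 ± 0.15 (adjusted p = 0.0622), NCL by -0.29 ± 0.073 (adjusted p = 0.0360) and DKC1 by -0.30 ± 0.076 (adjusted p = 0.0339). The count was 12 without replicate 1 and 8 without replicate 2 of the control cells, 7 with total counts alone and 1 when the 2 groups were fitted alone, and 42 of 42 members lay below 0. MYC was not called, with 472.9 and 397.8 CPM in the control libraries, 477.6 and 403.7 CPM with EPZ-6438, 431.0 and 403.6 CPM with VTP50469 and 571.8 and 541.2 CPM with both drugs (0.033 ± 0.11, adjusted p = 0.892 with EPZ-6438).

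VTP50469 alone changed no member in SuDHL10 by edgeR (0% of all genes were lower and 0% higher), with none at an unadjusted p under 0.05 and none by DESeq2, and the median was -0.052. NCL was at -0.020 (95% interval -0.19 to 0.15) and MYC at -0.042 (95% interval -0.30 to 0.22). With both drugs 4 of 42 members were called lower, UTP20 at -0.40 ± 0.12 (adjusted p = 0.0524), DDX10 at -0.34 ± 0.12 (adjusted p = 0.0942), DDX21 at -0.33 ± 0.12 (adjusted p = 0.0920) and NOLC1 at -0.23 ± 0.075 (adjusted p = 0.0699), and 0 higher (7.93% and 13.7% of all genes), with a median of -0.13. The share of members called lower was thus near that of all genes. With the replicate block 15 were lower and 1 higher, with total counts alone none was lower, and none was lower without replicate 2 of the control cells or without either library with both drugs. The summed level was 90.7% of that of the control cells, against 80.6% with EPZ-6438. MYC rose, at 0.39 ± 0.11 (adjusted p = 0.0529), a call that was lost without replicate 2 of the control cells or without either library with both drugs, and all 42 members had a lower fold change than MYC.

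Between both drugs and EPZ-6438 alone, 1 member, EBNA1BP2, was higher (0.37 ± 0.095, adjusted p = 0.0933) and 0 lower in SuDHL10 (1.77% and 2.70% of all genes), while 40 of 42 lay above 0 with a median of 0.21 and MYC was at 0.35 ± 0.11 (adjusted p = 0.150). With the replicate block 24 members and MYC (adjusted p = 0.00205) were higher, without replicate 1 of EPZ-6438 the count was 18, and without any of the other 3 libraries it was 0. Between both drugs and VTP50469 alone, 2 members, UTP20 (-0.47) and DDX21 (-0.41), were lower and 0 higher (2.88% and 8.58% of all genes), 16 lower and 9 higher with the block, and 0 lower without any one of the 4 libraries, with a median of -0.054 and MYC at 0.43 ± 0.11 (adjusted p = 0.0647). The change beyond the sum of the single drugs had a median of 0.28, so it lay above 0 where that of KARPAS422 lay below, and edgeR called no member (0% of all genes higher and 0.0526% lower), with 16 higher at an unadjusted p under 0.05, 0 by DESeq2, 22 with the replicate block and 14 without replicate 1 of EPZ-6438.

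**Figure D5:**
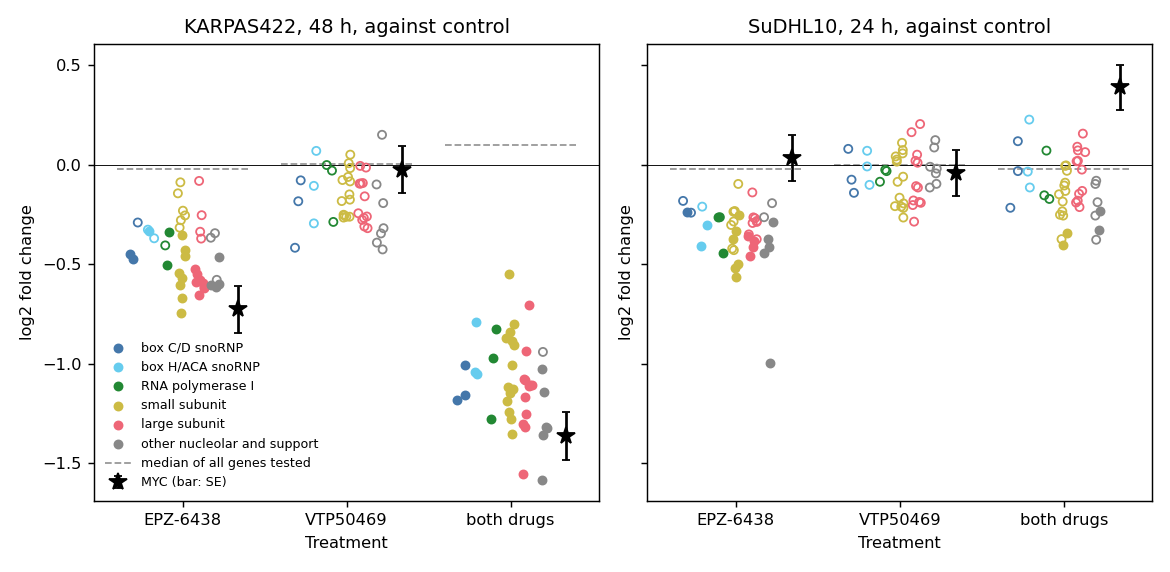
Log2 fold change against control cells with EPZ-6438, VTP50469 or both drugs for each of the 42 members (points, by role; filled points have an adjusted p under 0.1) and for MYC (star, bar is the standard error), in KARPAS422 after 48 h and SuDHL10 after 24 h. The median of the members goes from -0.45 and -0.18 with single drugs to -1.11 with both in KARPAS422, and from -0.30 and -0.052 to -0.13 in SuDHL10, where MYC lies above the members with both drugs.

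The other genes of the pathway, of which 105 of 117 were tested in the second table, had no gene called higher with any treatment against control cells. In KARPAS422 37 were lower with EPZ-6438, 0 with VTP50469 and 96 with both drugs, which is 35.2%, 0% and 91.4% of them beside 10%, 0.197% and 25.2% of all genes. RUVBL1 changed by -1.24 ± 0.088 (adjusted p = 0.000311) with both drugs, EMG1, a methyltransferase of the small subunit, by -1.24 ± 0.097 (adjusted p = 0.000388), UBTF by -0.85 ± 0.11 (adjusted p = 0.00149) and EXOSC2, a subunit of the exosome, by -1.08 ± 0.11 (adjusted p = 0.000759). In SuDHL10 21 (20%) were lower with EPZ-6438 and 0 with VTP50469, beside 5.39% and 0% of all genes. With both drugs 9 were lower (8.57%), such as URB2, a factor of the large subunit, at -0.38 ± 0.095 (adjusted p = 0.0307), a share near the 7.93% of all genes. Between both drugs and EPZ-6438 in SuDHL10, 3 of the 105 were higher.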

How the data were processed

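The authors aligned paired-end reads of rRNA-depleted libraries to hg38 with HISAT2 2.1.0 and assigned them to genes with featureCounts 1.6.1, as the study's methods and the submitters' processing notes give it, and deposited raw counts. Strand setting, annotation and the handling of reads with several matches were not stated in those sources. Counts per sgRNA of a knockout screen were also deposited. The labels gave the groups. Counts were tested with edgeR 4.0.16 (R 4.3.3, filterByExpr, TMM, quasi-likelihood test, Benjamini-Hochberg adjustment over all genes tested), 1 fit per line for drug changes, 1 per pair of lines for differences in response, 1 of the DMSO libraries of 4 lines and 1 of the control libraries of KARPAS422 and SuDHL10, and DESeq2 1.42.0 was an alternative. Errors are standard errors. Calls were made at an adjusted p under 0.1, with a fold above 1.5 between lines. Other scalings, no filter, other fits, a replicate block, thinning and leaving out each library were tried. No column of other samples was found (0).

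Members and lists were chosen with earlier results of these data known. The naming rule took, per comparison, the 4 called members with the largest fall and the 4 with the largest rise among those whose libraries did not overlap, called members against the majority and MYC. It also listed NPM1, NCL, FBL, NOP56, DKC1 and POLR1B and the genes of other lists with the smallest p, which the text gives in some comparisons only, and values per library stand for only part of the named genes. A few more were chosen after their values were seen, such as members that were not called.

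Same-numbered libraries deviated together in the second table, with correlations of 0.650 to 0.864 in KARPAS422 and, more weakly, 0.109 to 0.471 in SuDHL10. The labels state no pairing. The main counts there come from fits without a replicate block, and those with the block are given as alternatives. In the MI-503 table the correlations were -0.25 to 0.0071. On simulated counts the test recovered 94% of 50 genes changed 1.25-fold with MI-503 in KARPAS422, 82% for DB, 62% for Farage and 78% for SUDHL5. With both drugs it recovered 54% of 50 genes changed 2-fold in KARPAS422 and 100% in SuDHL10. Simulated libraries were drawn independently of each other at the fitted spread, with a small part of the genes changed. In the same comparisons of the real counts far more genes were called, and in the second table same-numbered libraries deviated together. The percentages therefore do not give the power of the test on these data.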

Additional observations from a re-analysis of the deposited data

Results flagged for a closer look

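The response to MI-503 differed between lines by an interaction term in edgeR's quasi-likelihood test. Between KARPAS422 and DB 44 members differed, 43 upwards and 1 downwards (27.2% and 19.7% of all genes), and MYC by 2.46 (log2, KARPAS422 minus DB). NOP16 differed by 1.39, GNL3 by 1.30, NOP56 by 1.10, PPAN by 1.05 and NPM1 by -0.20. Between KARPAS422 and Farage 13 members differed, 1 upwards and 12 downwards (9.52% and 14.7% of all genes), and the 12 became 4 to 22 when 1 library was left out. Among the 13, NOB1 differed by 0.26, NOC4L by -0.55, BOP1 by -0.39, MRTO4 by -0.35 and IPO4 by -0.32. Between KARPAS422 and SUDHL5 23 members differed, 22 upwards and 1 downwards (19.0% and 17.0% of all genes), among them NOP14 by 0.53, EBNA1BP2 by 0.43, NCL by 0.41, UTP20 by 0.40 and RRP9 by -0.28, and MYC differed by 0.68.

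A knockout screen held sgRNAs to 2 members and lay outside these comparisons. From day 0 to day 14 in KARPAS422, the median log2 change of 4 sgRNAs, centred on 48 control sgRNAs, was -3.76 for BOP1 (-4.89 to -3.01) and -3.79 for NOC2L (-8.17 to -1.77). Single control sgRNAs lay at -2.58 to 2.08. The median over the 564 genes screened was -0.69, and counted from the lowest NOC2L ranked 22 and BOP1 23. The screen had 1 library per line and day, so there is no replicate check, and sgRNAs to 1 gene are not replicates.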

How the results depend on the processing

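Of 618 alternative values of counts of members, 547 were within 1.5 times the reported count and 71 were not, and of 2537 alternative values of single genes 2313 kept direction and call, 192 lost the call, 12 gained it and 20 changed sign. The cause was not tested. These tallies include library sizes without mitochondrially encoded genes. In the second table such genes had 0 counts, so that setting could change no value there. With total counts alone, members higher in DB with MI-503 were 2, members higher in KARPAS422 than Farage 9, members lower in DB than SUDHL5 2, members lower with VTP50469 in KARPAS422 2, and in SuDHL10 7 were lower with EPZ-6438, 0 with both drugs and 1 with both drugs against VTP50469. With no filter on low counts, 1 was higher in DB, 0 were lower in KARPAS422 minus SUDHL5, and in SuDHL10 8 were lower with both drugs, 10 higher against EPZ-6438, 7 lower and 2 higher against VTP50469 and 4 higher beyond the sum. With DESeq2, 6 were lower in KARPAS422 minus Farage, 0 in KARPAS422 minus SUDHL5, 1 in KARPAS422 than DB at baseline (1 also with RLE size factors), 4 with VTP50469 and 14 beyond the sum in KARPAS422, and 6 were higher with both drugs against EPZ-6438 in SuDHL10 (2 with RLE size factors). With only the 2 groups compared, 2 were lower with VTP50469 and 20 with both drugs against EPZ-6438 in KARPAS422, and in SuDHL10 1 with EPZ-6438, 0 were higher against EPZ-6438, and 15 were lower and 9 higher against VTP50469. Thinned to equal depth, an alternative chosen after seeing the data, 2 were higher in DB.

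With the replicate block, 1 member was higher in DB with MI-503, and in SuDHL10 40 were lower with EPZ-6438, 15 lower and 1 higher with both drugs, 24 higher against EPZ-6438, 16 lower and 9 higher against VTP50469 and 22 higher beyond the sum. No other count moved by over 1.5 times under the block. Crossing the pairs in SUDHL5, chosen after seeing the data, gave 40 lower.

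Leaving out 1 library, where the lone sample is assumed to vary like the other groups, gave 0 to 1 higher in KARPAS422, 7 to 29 lower in Farage and 0 to 1 higher in SUDHL5 with MI-503. It gave 4 to 22 lower and 0 to 1 higher in KARPAS422 minus Farage, 0 to 1 lower in KARPAS422 minus SUDHL5 and 0 to 1 lower in KARPAS422 than DB at baseline. In KARPAS422 it gave 0 to 22 lower with EPZ-6438, 0 to 41 against EPZ-6438, 0 to 42 against VTP50469 and 0 to 41 beyond the sum. In SuDHL10 it gave 8 to 24 lower with EPZ-6438, 0 to 4 lower and 0 to 1 higher with both drugs, 0 to 18 higher against EPZ-6438, 0 to 0 lower against VTP50469 and 0 to 14 higher beyond the sum.

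These values changed sign. MYC in KARPAS422 minus Farage was 0.038 with RLE size factors, 0.012 with total counts, 0.052 with library sizes without mitochondrially encoded genes, 0.027 with no filter, 0.039 with DESeq2, and -0.095 to 0.086 without 1 library (0.046, 0.047, 0.050 and 0.035 without each KARPAS422 library, and 0.00072 without replicate 2 of DMSO in Farage). MYC ranged from -0.082 to 0.0998 with VTP50469 in KARPAS422, with 0.025 and 0.0998 without replicate 2 of the control cells or of VTP50469, from -0.12 to 0.18 with EPZ-6438 in SuDHL10, with -0.052 and -0.12 without replicate 2 of the control cells or replicate 1 of EPZ-6438, and from -0.11 to 0.072 with VTP50469 in SuDHL10, with 0.072 and 0.012 without replicate 1 of the control cells or replicate 2 of VTP50469. With total counts MYC was 0.019 and the median of the members 0.0057 with VTP50469 in SuDHL10, the median in SuDHL10 minus KARPAS422 was -0.034, FBL in KARPAS422 minus Farage was 0.074 and NOLC1 in KARPAS422 minus SUDHL5 was 0.046. Total counts moved the median of all genes by 0.10 to 0.19 in 4 comparisons at baseline, by -0.18 in SuDHL10 minus KARPAS422 and by 0.10 to 0.23 in 5 comparisons with drugs in KARPAS422 in the second table.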

Other observations

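In K562, a leukaemia line screened with the same library, the median log2 change of the sgRNAs from day 0 to day 14 was -0.30 for BOP1 and -0.39 for NOC2L. The 48 single control sgRNAs lay at -7.15 to 2.40, and the median over 564 genes was -0.23. Among other genes of the pathway, FTSJ3, a factor of the large subunit, was at -3.50 in KARPAS422 and -2.03 in K562, and EMG1 at -2.94 and -0.92. Counted from the lowest in K562, FTSJ3 ranked 4 (with 3 sgRNAs), EMG1 28, NOC2L 188 and BOP1 230. In KARPAS422 FTSJ3 ranked 37 and EMG1 57. Each line and day had 1 library, and the difference between lines was not tested.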
